A study of Homo sapiens with 4 samples.

Results

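The interleukin-1 (IL-1) family genes described here are the cytokines IL1A, IL1B, IL18 and IL33, the receptor antagonist IL1RN, the receptor chains IL1R1, IL1R2, IL1RAP and IL18R1, and CASP1, the protease that processes IL-1β and IL-18. They were chosen by gene symbol, with earlier results of the same comparison in these arrays already known, so their changes are given as a description and not as a test of the family. All 10 genes were measured, of 18132 genes with a probe set of their own, and they are covered by 26 of the 49293 probe sets tested. The knockdown group was OE33 cells transfected with the ON-TARGETplus SMARTpool against ARID1A, a pool of siRNAs against a subunit of the SWI/SNF chromatin remodelling complex, and the mock group was OE33 cells transfected with the ON-TARGETplus Non-targeting Pool. OE33 is an established line of human oesophageal adenocarcinoma cells. Both groups were grown with 15% serum, given siRNA at a final 50 nM with lipofectamin 2000 and harvested 48 hours later, and each was measured on 2 Affymetrix Human PrimeView arrays described as biological replicates. One cell line and 1 siRNA pool were used, so an effect of the pool on other transcripts cannot be told apart from an effect of ARID1A loss.

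IL-1 cytokines act as alarm signals of epithelia and white blood cells. IL-1α and IL-1β bind the receptor chain IL1R1, which then recruits the accessory chain IL1RAP, and the pair signals through MYD88 and the IRAK kinases to NF-κB. IL-1β and IL-18 are made as inactive precursors that caspase-1 cuts once it has been activated on an inflammasome, whereas IL-1α and IL-33 are released from damaged cells without that step. IL1RN encodes an antagonist that occupies IL1R1, and IL1R2 is a decoy receptor that binds the ligand without signalling.

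Values are log2 levels per probe set, and a change is the mean of the knockdown arrays minus the mean of the mock arrays. ARID1A itself was at 7.53 and 7.53 on the knockdown arrays, against 9.28 and 9.33 on the mock arrays, a change of -1.78 (95% confidence interval -1.96 to -1.60, adjusted p = 0.0218 by limma). Array medians ran from 5.899 to 5.918 in knockdown and from 5.893 to 5.929 in mock. For the ACTB control, the 3′ minus the 5′ probe set was 1.21 and 1.10 in knockdown, against 1.04 and 0.995 in mock, whereas for GAPDH it was 0.201 and 0.215 in knockdown, against 0.199 and 0.211 in mock. The part of the ACTB difference in the changes below was not tested. Of the 10 markers of epithelium and columnar lining, 5 were higher on both knockdown arrays, 2 lower and 3 overlapped. Over all genes, 25.8% were higher and 23.6% lower without overlap. None of the 10 passed the test in limma, beside 0.403% of all genes. Over these 10, changes ran from -0.38 for KRT20 to 0.24 for ELF3, the 2 with an unadjusted p under 0.05 (limma). Over all genes, 9.76% were higher and 7.25% lower at that p. KRT19, the brightest, was at 14.58 on both knockdown arrays and at 14.58 and 14.54 on the mock arrays. TFF1 was the dimmest, and the lowest values of the list were 4.23 in knockdown and 4.52 in mock. Of the 12 white blood cell markers 11 were measured, and their summed linear signal was 516 and 496 in knockdown and 521 and 544 in mock. Without overlap, 1 of the 11 was higher and 3 lower, beside 25.8% and 23.6% of all genes, and the median change was -0.05. PTPRC, which marks all white blood cells, was dim, at 3.27 and 3.26 in knockdown, against 3.17 and 3.03 in mock, and the brightest of the 11, TYROBP, lay between 7.32 and 7.48. The 10 fibroblast and endothelial markers summed to 349 and 330 in knockdown and to 371 and 392 in mock. Without overlap, 0 of these 10 were higher and 7 lower, beside 25.8% and 23.6% of all genes. Their median change was -0.14. At an unadjusted p under 0.05 (limma) 4 were lower, beside 7.25% of all genes, and none passed the test. The sums of these 2 marker lists were both lower on the knockdown arrays, opposite to PTPRC alone. The part of such transcripts in the family's values was not tested.

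The receptor chains IL1R1 and IL1RAP, the cytokine IL18 and the protease CASP1 were higher on both ARID1A knockdown arrays than on either mock array, each at its brightest probe set. So were the dimmer receptor chain IL18R1 and the cytokine IL33, with smaller changes of 0.20 and 0.14. The ligands IL1A and IL1B and the antagonist IL1RN had changes between -0.16 and -0.07 at their brightest probe sets. IL1RAP rose 1.56-fold and was the 1 member past the test. Of the 26 probe sets, 13 were higher on both knockdown arrays than on either mock array, 2 were lower on both and 11 overlapped. Over all probe sets of the array, 24.2% were higher without overlap and 22.5% lower. By limma, 1 of the 26 passed an adjusted p of 0.05, beside 0.316% of all probe sets, and nothing is read from this share because the same comparison was known when the genes were chosen. The median change was 0.15 over the 26 probe sets and -0.0025 over all probe sets. At the brightest probe set of each gene, 6 of the 10 were higher without overlap and 2 lower, against 25.8% and 23.6% of all genes. The median over these 10 was 0.22, against -0.0043 over all genes. In whole cultures, more RNA per cell and more cells that carry the RNA cannot be told apart.

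**Figure D1:**
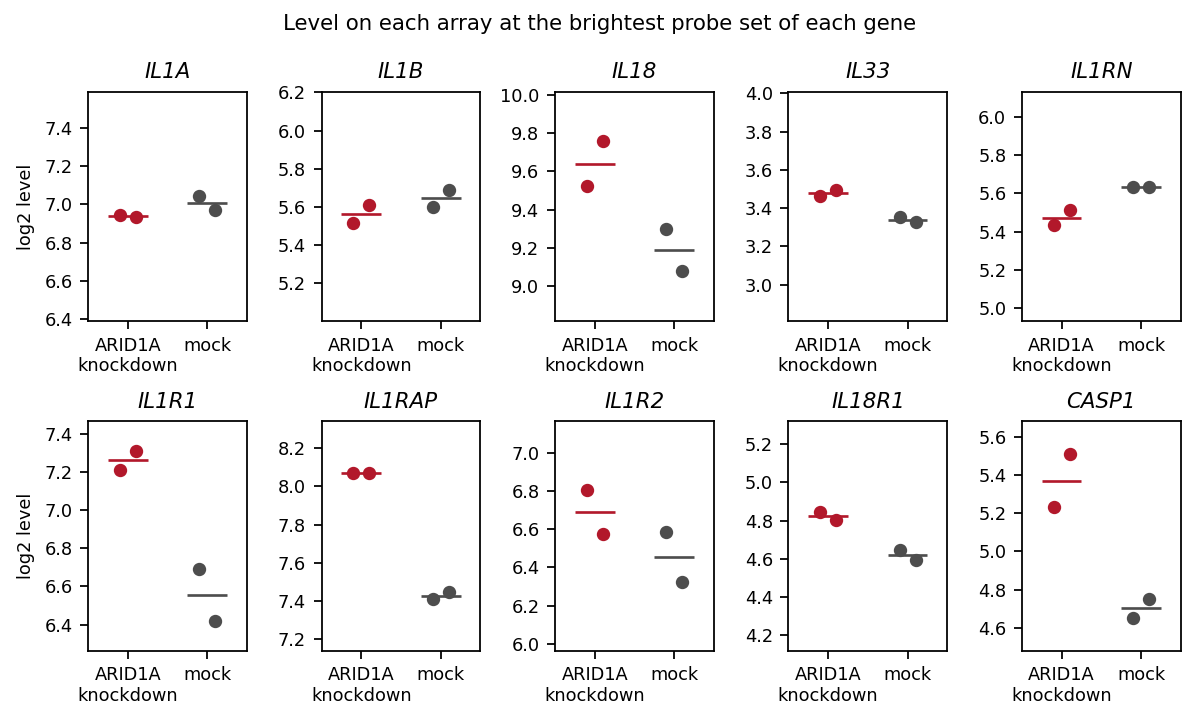
Log2 level of each of the 10 genes at its brightest probe set (vertical axes, each spanning 1.2 log2 units), with ARID1A knockdown arrays in red on the left and mock arrays in grey on the right. Points are single arrays and lines are means of 2 arrays. The knockdown arrays lie above the mock arrays for IL1R1, IL1RAP, IL18, CASP1, IL18R1 and IL33, below them for IL1A and IL1RN, and overlap them for IL1B and IL1R2.

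Among the ligands, IL1A was at 6.94 and 6.93 in knockdown cells, against 7.05 and 6.97 in mock cells. The knockdown values lay below the mock values by a gap of 0.024, and the change was -0.07 (95% confidence interval -0.25 to 0.12). IL1B had levels of 5.52 and 5.61 in knockdown, against 5.60 and 5.69 in mock. The groups overlapped, with a change of -0.08 (-0.28 to 0.12). A single probe set measured each of these cytokines. The intervals therefore leave room for falls of up to 0.25 and 0.28 and for rises of up to 0.12.

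IL18, an IL-1 family cytokine that epithelial cells make constitutively, had levels of 9.52 and 9.76 in knockdown, against 9.30 and 9.08 in mock. Its level lay at the 87.8th percentile of the array. Both knockdown arrays lay above both mock arrays, by 0.22 at the closest, although the arrays of each group differed among themselves by about as much. The change was 0.45 (0.16 to 0.75), a 1.37-fold difference that did not pass the test (limma adjusted p = 0.175). Its only probe set ends in _x_at, a suffix for probe sets whose probes can match other sequences.

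IL33, a nuclear alarm cytokine, was near the lower end of the signal range at all 3 of its probe sets, at the 9.72th, 1.88th and 0.552th percentiles. The first of these had levels of 3.46 and 3.49 in knockdown, against 3.35 and 3.33 in mock, a change of 0.14 (-0.04 to 0.32). The other 2 overlapped between the groups, with changes of 0.08 and -0.04. IL33 was thus dim in both groups. RMA can understate changes at such levels, and its part in the small changes of IL33 was not tested. The CASP1 probe sets 11741076_a_at and 11742386_a_at, at the 3.85th and 3.45th percentiles, had changes of 0.49 and 0.45.

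The antagonist IL1RN had 2 probe sets of opposite sign. At 11740722_a_at, the levels were 5.43 and 5.51 in knockdown, against 5.63 and 5.63 in mock, a change of -0.16 (-0.34 to 0.02). At 11719754_s_at they were 5.05 and 5.08 in knockdown, against 5.07 and 4.94 in mock, a change of 0.06 (-0.14 to 0.26). Since the signs differed and neither passed the test, no direction is given for IL1RN as a gene, only for each probe set.

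**Figure D2:**
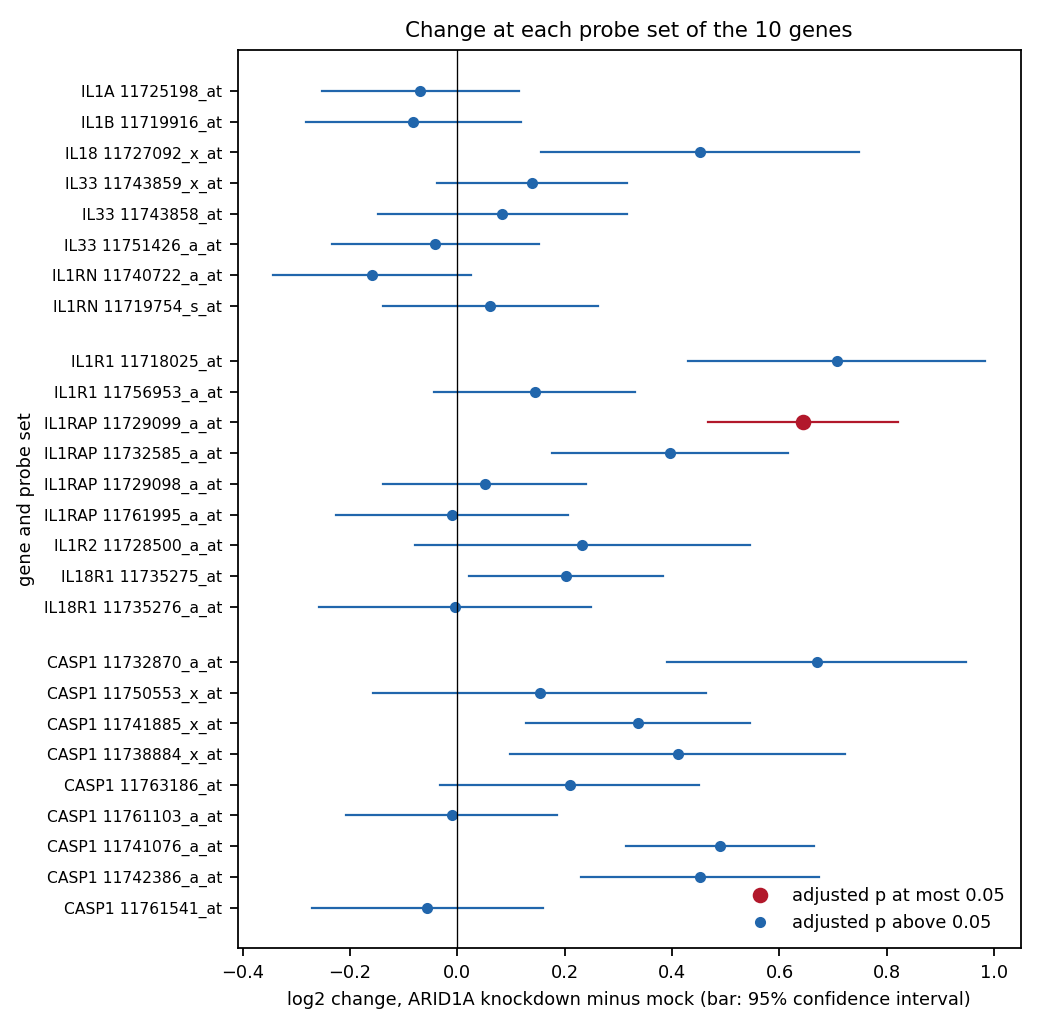
Log2 change, knockdown minus mock, at each of the 26 probe sets (points) with its 95% confidence interval (bars), grouped into ligands with the antagonist, receptors and protease, and ordered by level within a gene. The 1 red point, IL1RAP 11729099_a_at at 0.64, passed the test, and the intervals of the ligands IL1A, IL1B and IL33 all include 0.

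Of the receptors, IL1RAP had the change with the smallest error. This accessory chain also serves the receptors of IL-33 and of the IL-36 cytokines. At 11729099_a_at it was at 8.07 and 8.07 in knockdown cells, against 7.41 and 7.45 in mock cells. The groups were 0.62 apart, while the arrays within a group differed by no more than 0.04. The mean was 8.07 ± 0.00094 in knockdown and 7.43 ± 0.027 in mock (SD, n = 2 each). The change was 0.64 (0.47 to 0.82; adjusted p = 0.0499 by limma), just inside the threshold. At 11732585_a_at the levels were 7.71 and 7.85 in knockdown, against 7.44 and 7.33 in mock, a change of 0.40 (0.18 to 0.62; adjusted p = 0.135). The remaining 2 probe sets of IL1RAP were dimmer and overlapped between the groups, with changes of 0.05 and -0.01. The bright and dim probe sets of the gene thus differed in size of change, from -0.01 to 0.64.

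The call of IL1RAP depends on the setting. The call was lost without probe sets ending in _s_at or _x_at (0 of 20 member probe sets passed, smallest adjusted p 0.0552), although its own probe set was kept and its change was not altered. It was also lost with the replicate number as a block (adjusted p = 0.255) and without any 1 of the 4 arrays (0.262 without knockdown replicate 1, 0.361 without knockdown replicate 2, 0.359 without mock replicate 1 and 0.521 without mock replicate 2), while its change stayed between 0.61 and 0.66 in every setting run. With the block or any 1 array left out, 0 probe sets of the array passed, those of ARID1A included. The IL1RAP call held when arrays were centred on their medians or quantile normalized, when dim probe sets were left out, and with a prior that follows the level, with adjusted p-values from 0.00132 to 0.0446.

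IL1R1, the signalling receptor for IL-1α and IL-1β, had the largest change of the 26 probe sets. At 11718025_at the levels were 7.21 and 7.31 in knockdown, against 6.69 and 6.42 in mock. The knockdown arrays lay 0.52 or more above the mock arrays, which differed from each other by 0.27. The means were 7.26 ± 0.070 in knockdown and 6.55 ± 0.19 in mock (SD, n = 2 each). The difference was 1.63-fold (log2 change 0.71, 0.43 to 0.98), larger than that of 99.7% of all probe sets, but its adjusted p in limma was 0.0787. The second probe set, 11756953_a_at, had levels of 4.69 and 4.74 in knockdown, against 4.53 and 4.61 in mock. It was also higher on both knockdown arrays, with a smaller change of 0.14 (-0.04 to 0.33).

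The decoy receptor IL1R2 was at 6.80 and 6.57 in knockdown, against 6.59 and 6.32 in mock. The groups overlapped, since the arrays of each group differed among themselves by as much as the change of 0.23 (-0.08 to 0.54), which became 0.10 when mock replicate 2 was left out and 0.36 when mock replicate 1 was. IL18R1, the ligand-binding chain of the IL-18 receptor, was dim. At 11735275_at its levels were 4.844 and 4.804 in knockdown, against 4.648 and 4.595 in mock, a change of 0.20 (0.02 to 0.38; limma adjusted p = 0.266). Its other probe set, at the 6.92th percentile of level, had a change of -0.0042. IL18RAP, the signalling partner of IL18R1, lay between 4.44 and 4.61 on all 4 arrays.

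Several of the receptor genes lie side by side in the genome, as do the genes of the ligands and the antagonist, so neighbours can be compared. In the order of the RefSeq gene table, the receptor cluster on chromosome 2 runs IL1R2, IL1R1, IL1RL2, IL1RL1, IL18R1 and IL18RAP. The changes at the brightest probe sets were, in that order, 0.23, 0.71, 0.02, -0.17, 0.20 and -0.05. IL1R1 thus lies between IL1R2, whose groups overlapped at a change of 0.23, and IL1RL2, at 0.02, and IL1RL1, the IL-33 receptor, was lower on both knockdown arrays. In the ligand cluster on the same chromosome, which has IL1A at one end and IL1RN at the other, all 9 genes had changes between -0.16 and 0.16, none past the test.

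**Figure D3:**
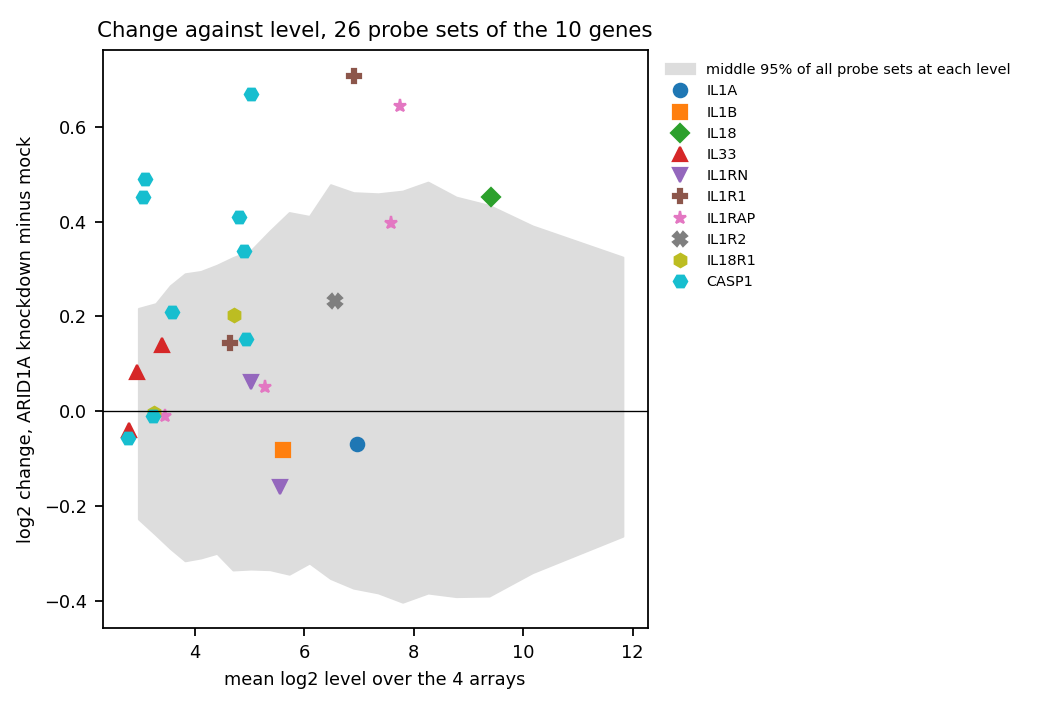
Log2 change against the mean log2 level over the 4 arrays for the 26 probe sets (symbols by gene), over a grey band that holds the middle 95% of all probe sets at each level. Of the 26 probe sets 7 lie above the band, 4 of CASP1 and 1 each of IL1R1, IL1RAP and IL18, and 0 lie below it.

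The stretches around the transcription starts of IL1RAP and IL1R1, the receptor chains with the largest changes, are shown beside those of the ligands IL1A and IL1B, whose changes were -0.07 and -0.08. RefSeq windows of 250 bases before to 50 after a start (build GRCh38.p14) were found for 8 of the 10 genes, not for CASP1 and IL18. Where a gene has several windows, the one richest in G and C is shown. The windows are chr3:190513835-190514134 on the plus strand for IL1RAP, chr2:102142496-102142795 on the plus strand for IL1R1, chr2:112784351-112784650 on the minus strand for IL1A and chr2:112836730-112837029 on the minus strand for IL1B, each written 5′ to 3′ along its gene. Capitals mark matches, on either strand, to the GC box GGGCGG, the AP-1 letters TGANTCA, the NF-κB letters GGNNNTTCC, the STAT letters TTCNNNGAA, the IRF letters GAAANNGAA or the TATA box TATAAA, which can overlap.
IL1RAP: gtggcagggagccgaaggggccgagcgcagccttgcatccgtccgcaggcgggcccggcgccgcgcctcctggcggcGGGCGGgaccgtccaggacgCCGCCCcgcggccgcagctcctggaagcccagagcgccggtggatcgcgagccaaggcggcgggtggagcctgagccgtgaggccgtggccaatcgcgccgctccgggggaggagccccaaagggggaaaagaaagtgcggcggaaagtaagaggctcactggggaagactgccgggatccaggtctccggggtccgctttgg
IL1R1: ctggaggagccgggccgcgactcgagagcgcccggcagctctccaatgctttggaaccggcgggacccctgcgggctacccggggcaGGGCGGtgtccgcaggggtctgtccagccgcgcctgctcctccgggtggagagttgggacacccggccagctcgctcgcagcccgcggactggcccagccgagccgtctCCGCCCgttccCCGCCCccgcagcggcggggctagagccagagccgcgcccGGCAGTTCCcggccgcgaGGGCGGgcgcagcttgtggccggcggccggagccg
IL1A: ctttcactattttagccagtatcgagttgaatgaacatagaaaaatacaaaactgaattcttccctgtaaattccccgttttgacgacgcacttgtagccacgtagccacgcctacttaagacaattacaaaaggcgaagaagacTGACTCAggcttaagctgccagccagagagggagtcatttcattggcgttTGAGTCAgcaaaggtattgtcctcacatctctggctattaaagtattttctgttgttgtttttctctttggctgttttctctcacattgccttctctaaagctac
IL1B: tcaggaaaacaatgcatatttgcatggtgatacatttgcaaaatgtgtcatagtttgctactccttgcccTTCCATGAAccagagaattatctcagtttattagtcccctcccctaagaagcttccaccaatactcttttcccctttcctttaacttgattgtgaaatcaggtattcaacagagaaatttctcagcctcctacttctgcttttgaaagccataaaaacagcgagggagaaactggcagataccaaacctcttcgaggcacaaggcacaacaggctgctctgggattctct

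Over the windows of these 8 genes, the share of G and C ran from 39.0% to 77.7%. The 1 window of IL1RAP has 73.7%, and the 4 of IL1R1 have 44.3% to 77.7%, those of IL18R1 56.7% and 72.3%, those of IL1R2 52.0% and 56.3%, those of IL1A 39.7% and 41.3% and that of IL1B 42.3%. The windows shown for IL1R1 and IL1A were picked for this share, so nothing is read from it, and the arrays do not tell which start OE33 cells use. The capitals in IL1RAP are 2 GC boxes, and those in IL1R1 are 4 GC boxes and 1 NF-κB match that spans the start. IL1A holds 2 AP-1 matches, 105 and 55 bases before its start, and IL1B 1 STAT match. Of all windows, 45.0% hold the GC box, 20.1% the NF-κB, 11.5% the TATA, 8.11% the IRF, 7.71% the AP-1 and 7.66% the STAT letters. A match is a string of letters and does not show binding.

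CASP1 had 9 probe sets of its own, and 6 of them were higher on both knockdown arrays than on either mock array, beside 24.2% of all probe sets. They read the same gene in the same RNA, so the 6 are not independent measurements. At the brightest, 11732870_a_at, the levels were 5.23 and 5.51 in knockdown, against 4.65 and 4.75 in mock. The closest knockdown and mock arrays were 0.48 apart. The change was 0.67 (0.39 to 0.95), a 1.59-fold difference with an adjusted p of 0.0885 in limma. The tightest pair of groups was at 11741076_a_at, with 3.34 and 3.32 in knockdown, against 2.83 and 2.84 in mock (change 0.49, 0.31 to 0.66; adjusted p = 0.0699). At 11742386_a_at the levels were 3.23 and 3.34 in knockdown, against 2.76 and 2.91 in mock (change 0.45). These last 2 probe sets lay below the 4th percentile of level, yet their changes exceeded those of 98.5% of all probe sets.

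The remaining CASP1 probe sets gave smaller changes. Those ending in _x_at, 11738884_x_at, 11741885_x_at and 11750553_x_at, had changes of 0.41, 0.34 and 0.15, the last with overlapping groups because mock replicate 1, at 5.03, lay above knockdown replicate 1, at 4.96. Leaving out mock replicate 2 gave 0.24 for 11738884_x_at, and leaving out mock replicate 1 gave 0.58. The probe set 11763186_at had a change of 0.21, with 3.77 and 3.61 in knockdown, against 3.40 and 3.56 in mock. The remaining 2, 11761103_a_at and 11761541_at, had changes of -0.01 and -0.06 at levels near the bottom of the range. The median change over the 9 was 0.34.

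CASP1 shares sequence with its neighbour CARD16, which encodes a protein made of the CARD domain alone that can bind caspase-1. A further probe set is paired with both genes, so it is not counted among the 26. Its levels were 6.94 and 6.93 in knockdown, against 6.69 and 6.49 in mock (change 0.35, 0.12 to 0.58). CARD16 alone was at 4.61 and 4.69 in knockdown, against 4.02 and 4.35 in mock, a change of 0.46 (adjusted p = 0.178), and at its dimmer probe set the change was 0.13. How far the 2 transcripts contribute to each other's probe sets was not tested. The adjoining inflammatory caspase genes differed less, with a change of 0.04 for CASP4 and -0.09 for CASP5.

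The other genes of the pathway were taken from 5 lists of 94 genes, of which 86 had a probe set of their own. Of these 86, 1 rose and 1 fell past the test, beside 0.403% of all genes, and 25 were higher and 17 lower without overlap, beside 25.8% and 23.6% of all genes. Their median change was 0.02. The shares without overlap are near those of all genes, whereas the called share is larger but rests on 2 genes. Before adjustment, 14 of the 86 were higher and 6 lower at p below 0.05 (limma), beside 9.76% and 7.25% of all genes. The lists were drawn up from textbook roles with earlier results of these arrays known.

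Inflammasome and pyroptosis genes had a median change of 0.03 over 25 measured. None passed in limma, and 5 had an unadjusted p under 0.05, all of them higher in knockdown, where 9.76% of all genes were higher and 7.25% lower at that p. PYCARD, the adaptor ASC that links sensors to caspase-1, was at 9.18 and 9.26 in knockdown, against 8.85 and 8.81 in mock (change 0.39, adjusted p = 0.111), and its second probe set had a change of 0.29. GSDMD, the pore-forming protein that caspase-1 cuts, was at 8.31 and 8.36 in knockdown, against 7.98 and 8.06 in mock (change 0.31, adjusted p = 0.152). SERPINB1, an inhibitor of neutrophil proteases and of inflammatory caspases, was at 11.42 and 11.46 in knockdown, against 11.13 and 10.93 in mock (change 0.41). The 8 inflammasome sensors of the list, named here after their values were seen, had changes of -0.0050 for NLRP1, -0.02 for NLRP3, -0.0051 for NLRP6, 0.03 for NLRP12, -0.15 for NLRC4, -0.0084 for NAIP, -0.07 for AIM2 and -0.14 for MEFV. NLRC4 was lower on both knockdown arrays, and the other sensors did not separate the groups.

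Among the transducers downstream of the receptors, 22 were measured with a median change of 0.04. CHUK, the IκB kinase subunit IKKα, fell 1.65-fold, to 8.51 and 8.63 in knockdown, against 9.32 and 9.26 in mock (change -0.72, adjusted p = 0.04996 by limma), at its only probe set. IKBKG, the regulatory subunit of the same kinase, had a change of -0.32 that did not pass (adjusted p = 0.212 by limma). That was at the brightest of its 8 probe sets, which ends in _x_at. IRAK2, a kinase of the MYD88 complex, had a change of 0.27 and MAP3K3 one of 0.22, and neither passed.

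Of 17 measured genes that IL-1 is known to induce, 1 rose past the test. At an unadjusted p under 0.05 (limma), 6 were higher and 2 lower, beside 9.76% and 7.25% of all genes. CXCL1, a chemokine that attracts neutrophils, was at 9.64 and 9.62 in knockdown, against 8.88 and 8.93 in mock, a 1.66-fold rise (adjusted p = 0.0444), and its second probe set had a change of 0.46 (0.111). CXCL8, another neutrophil chemokine, had a change of 0.54 and CXCL3 one of 0.28, neither past the test. TNFAIP2 had a change of -0.48 in the opposite direction. The calls of CXCL1 and CHUK were lost in the same settings as that of IL1RAP, the called CXCL1 probe set being itself one that ends in _s_at. Over the list, 7 of 17 were higher and 5 lower without overlap, beside 25.8% and 23.6% of all genes, the 1 called stood beside 0.403%, and the median was 0.01.

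The other IL-1 family cytokines and receptors had a median change of 0.02 over 13 measured. None passed in limma, and 1 had an unadjusted p under 0.05, where 9.76% of all genes were higher and 7.25% lower at that p. That 1 gene was IL1RAPL2, a receptor-like protein related to IL1RAP, at 3.71 and 3.65 in knockdown, against 4.08 and 4.17 in mock. IL1RAPL1 had a change of 0.19, IL37 of 0.16 and IL1RL1 of -0.17. Proteases that cut IL-1 family cytokines other than caspase-1 had a median of -0.0094 over 10 measured. None of them passed either, and 1, CAPN1, had an unadjusted p under 0.05. CAPN1, a calpain (the protease class that processes IL-1α), was at 8.51 and 8.48 in knockdown, against 8.77 and 8.78 in mock, a change of -0.28, and at its other probe set of -0.48. CAPNS1, CTSS and CTSL had changes of -0.17, 0.13 and 0.12.

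**Figure D4:**
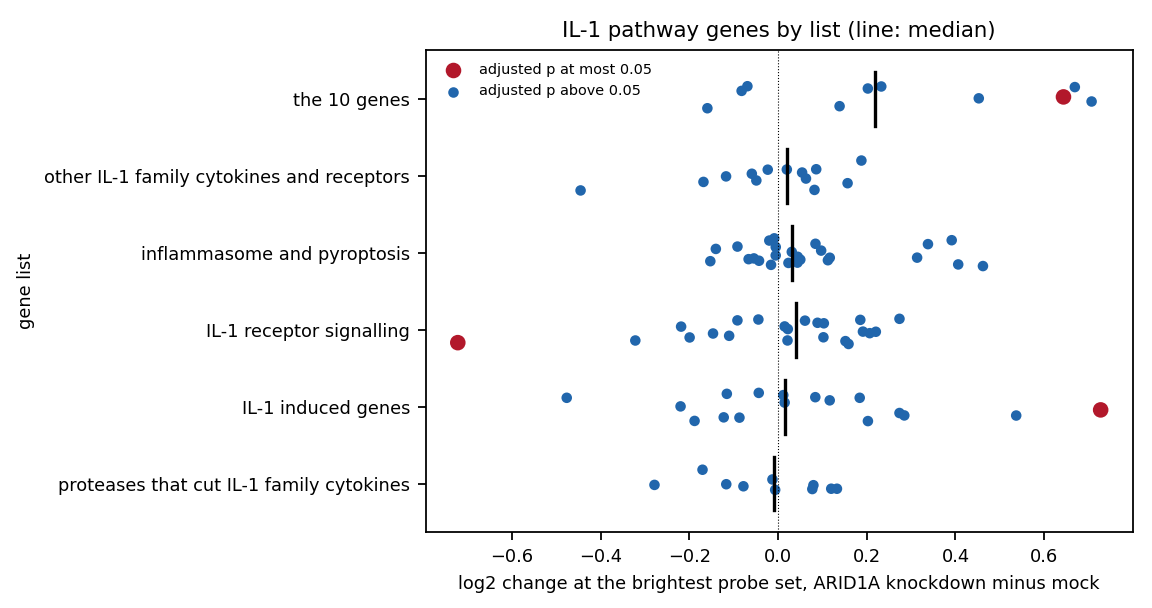
Log2 change, knockdown minus mock, at the brightest probe set of each gene (points) in the 10 genes and in 5 lists of the pathway, with the median of each as a vertical line. The medians are 0.22 for the 10 genes and between -0.0094 and 0.04 for the lists, and the red points are IL1RAP, CHUK and CXCL1, which passed the test.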

How the data were processed

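Total RNA of 4 OE33 cultures was measured on Affymetrix PrimeView arrays, 2 per group, grouped by the sample labels. The deposited values are log2 levels per probe set, for which the submitters' processing notes name RMA and Partek, with no version or role. RMA equalises the distributions of the arrays and compresses changes of dim probe sets. Genome build, filters and detection calls were not given in the sources used here, and arrays have no read depth, so their number limits precision.

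From the deposited log2 values, 79 control probe sets were left out, and 49293 were fitted with limma 3.58.1 (R 4.3.3; lmFit, eBayes, two-sided, no pairing, 2 residual and 3.62 prior degrees of freedom) and adjusted by Benjamini-Hochberg at 0.05. Intervals are 95%. Genes were named through the platform annotation and RefSeq identifiers. A gene's brightest probe set is, among those naming no other gene, the one with the highest mean level. All member probe sets are reported. From each other list, genes past the test and up to 4 with the smallest unadjusted p were named, and of the marker lists some genes. The members and lists were chosen with earlier results of these data known. The procedure was also run on simulated arrays whose variance did not follow the level, and no result here rests on that run. Motifs were searched in RefSeq windows. Same-numbered arrays deviated from their group means with a correlation of -0.202, and the labels do not say that they share a culture or day. Beyond the name biological replicates, nothing says how the cultures of a group were kept apart, so p-values measure only the spread between these arrays. Alternatives were median centring, quantile normalization, a filter at the 25th percentile of level, removal of _s_at and _x_at probe sets, a prior that follows the level, a replicate block and leaving out each array.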

Additional observations from a re-analysis of the deposited data

How the results depend on the processing

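The direction of the changes of IL1R1, IL18, IL1R2, IL1A and IL1B and of the brightest probe sets of IL1RAP, CASP1, IL18R1, IL33 and IL1RN was the same in every setting run that kept them. The number of calls was not. Beside 156 probe sets, 1 member probe set and 2 pathway genes, median centring gave 671, 4 and 4, quantile normalization 297, 1 and 2, the filter on dim probe sets 487, 1 and 4, and the prior that follows the level 3209, 7 and 10. Without _s_at and _x_at probe sets 23, 0 and 0 passed. Of the probe sets called, 74 were higher and 82 lower as reported, 403 and 268 after centring, 142 and 155 with quantile normalization, 276 and 211 with the filter, 1928 and 1281 with the level-dependent prior and 7 and 16 without shared probe sets. The 4 member probe sets called after centring were 1 of IL1RAP, 1 of IL1R1 and 2 of CASP1, and the 7 called with the level-dependent prior were these, IL18, 1 more of CASP1 and 1 more of IL1RAP. With the replicate block 0 probe sets, 0 member probe sets and 0 pathway genes passed, and the adjusted p of ARID1A was 0.217 at its change of -1.78. The crossed replicate block, added after seeing the data, also gave 0, 0 and 0. The unadjusted p in limma was under 0.05 for 10 of the 26 member probe sets with the block and for 11 with the crossed block. In the fit as reported it was so for 10, beside 4484 higher and 3485 lower of all 49293 probe sets. The share of all probe sets at that p was not counted for the blocks, so nothing is read from these counts. Without any 1 array the ARID1A change ran from -1.80 to -1.75. These fits have 1 residual degree of freedom, and the lone array of a group is assumed to vary like the others.

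Some dim or small changes turned sign. Under quantile normalization IL1RAP 11761995_a_at was at 0.011, IL18R1 11735276_a_at at 0.0088 and CASP1 11761103_a_at at 0.0094. With 1 array left out, IL1RAP 11761995_a_at ran from -0.092 to 0.072, IL18R1 11735276_a_at from -0.092 to 0.084, CASP1 11761103_a_at from -0.068 to 0.048, CASP1 11761541_at from -0.13 to 0.023, CASP1 11750553_x_at from -0.011 to 0.32, IL33 11743858_at from -0.011 to 0.18, IL33 11751426_a_at from -0.082 to 0.00032 and IL1RN 11719754_s_at from -0.0010 to 0.12. Others kept their sign but at 1 or both ends of their range differed by over 1.5 times from the change reported with all 4 arrays. They were IL1R2 from 0.10 to 0.36, CASP1 11738884_x_at from 0.24 to 0.58, CASP1 11763186_at from 0.13 to 0.29, IL1A from -0.11 to -0.030, IL1B from -0.13 to -0.034 and IL1RAP 11729098_a_at from 0.0061 to 0.095. Within that factor of the reported change, IL18 still ran from 0.34 to 0.57, CASP1 11732870_a_at from 0.53 to 0.81 and IL1R1 11718025_at from 0.57 to 0.84. With the median over a gene's probe sets in place of the brightest, CASP1 was at 0.34, IL1R1 at 0.43, IL1RAP at 0.22, IL18R1 at 0.099, IL33 at 0.084 and IL1RN at -0.049. The cause of these shifts was not tested.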
